A study of Homo sapiens with 8 samples.

Results

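The comparison described here sets the 3 small interfering RNAs (siRNAs) to ESRRA, averaged, against the control siRNA. The cells were MDA-MB-231, a long-cultured breast cancer line that lacks estrogen and progesterone receptors. The comparison takes in 8 of the 8 libraries of the series, 6 with an ESRRA siRNA and 2 with the control. The groups were siC (control siRNA), siE1, siE2 and siE3 (an siRNA to ESRRA each), with 2 RNA-seq libraries per group. All cells were kept in DMEM with fetal calf serum and transfected with the same reagent (INTERFERin), the control included, and the sources used here do not give the time of harvest. Each ESRRA siRNA had equal weight, and a gene is called shared here when edgeR's quasi-likelihood test gave an adjusted p below 0.05 in the same direction for siE1, siE2 and siE3. These 3 contrasts use the same 2 siC libraries.

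Total counts ran from 21835995 to 25880548 per library. Libraries of 1 group differed by a chi-square of 3.11 to 5.12 per degree of freedom and libraries of different groups by 40.6 to 75.1, so replicates differed by more than counting noise. Markers of the line were present, with VIM at 3164 to 4056 CPM (a gene's count as a share of the library total, scaled by TMM), while ESR1 and PGR, which define hormone-receptor-positive tumors, were at 0.0456 CPM or below. They belong to a list of 8 genes expected to be low, which summed to 305 to 402 CPM. In that list KRT8 was at 230 to 327 CPM, ERBB2 at 52.0 to 67.0, EPCAM at 9.11 to 12.7, FOXA1 at 2.77 to 6.67 and GATA3 at 2.57 to 4.32. CDH1 was at 0.137 CPM or below. Blood, fibroblast and endothelial marker lists summed to at most 0.813, 10.2 and 4.24 CPM in any library, with 2, 2 and 0 of 4 genes at 0 in all libraries. The labels do not say that replicates were separate cultures, so the error behind each p-value is the spread of these libraries and may be technical. In bulk RNA, a change in the share of a kind of cell cannot be told apart from a change per cell.

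ESRRA encodes ERRα, an orphan nuclear receptor that binds DNA at TNAAGGTCA, the extended half-site known as the ERR element. With its coactivators of the PGC-1 family it is known for driving genes of mitochondrial respiration, and in breast tumors it has been studied in metabolism and in cell invasion. An siRNA lowers an mRNA by guiding argonaute to a matching site, so the fall of ESRRA mRNA checks the labels.

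ESRRA stood at 62.9 and 64.8 CPM in the siC libraries. It was at 10.3 and 10.5 CPM under siE1, 8.86 and 7.25 under siE2, then 8.55 and 8.30 under siE3. All 6 siRNA libraries lay far below both controls, and the average log2 fold change was -2.84 (SE 0.0634, edgeR adjusted p = 3.131e-13), which leaves a fraction of 0.139 of the control level. Of 31 tested nuclear receptor genes, ESRRA was the one shared lower gene and 0 were shared higher, where 7.42% of all tested genes were shared lower and 8.73% shared higher. The receptor's coregulators had 10 tested members, of which 1 was shared higher and 2 shared lower. NCOA2, a p160 coactivator, was at 0.20, 0.75 and 0.81 with siE1, siE2 and siE3, the PGC-1-related coactivator PPRC1 at -0.37, -0.92 and -0.42, and the corepressor NRIP1 at -0.52, -0.31 and -0.23 (log2 fold changes).

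The average of the 3 siRNAs against siC was called at 6849 of 13395 tested genes (51.1%), 3138 higher (23.4%) and 3711 lower (27.7%). Far fewer were shared, 2164 genes (16.2%), of which 1170 were higher (8.73%) and 994 lower (7.42%). Of the genes called in the average, 1659 had siRNAs of different sign, and at 415 an siRNA was called in the opposite direction. An F test of the 3 siRNAs against each other, which leaves out the siC libraries, called 9476 genes (70.7%). It called 69.0% of the shared higher and 69.6% of the shared lower genes, and 60.9% of the genes not called in the average. A shared gene was thus called in 1 direction by all 3, and for most the size differed between siRNAs.

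Taken over all levels, shared higher genes moved further than shared lower ones, but their median control level was lower (33.0 against 83.9 CPM in siC). The median average log2 fold change was 0.55 for the higher genes (quartiles 0.39 and 0.82) and -0.40 for the lower ones (quartiles -0.31 and -0.53), against -0.01 over all tested genes. The weakest of the 3 siRNAs had a median of 0.39 among the higher and -0.25 among the lower genes, and 499 of the 994 lower genes had a weakest change smaller than 0.25. Within a control level from 1 CPM up, the medians of the weakest siRNA were closer in size. They were 0.70 and -0.70 from 1 to 5 CPM, 0.32 and -0.26 from 20 to 100 CPM, and 0.24 and -0.21 from 100 to 500 CPM. At 500 CPM or more they were 0.22 and -0.24. At least 1.5-fold with each siRNA were 296 higher genes (2.21%) and 42 lower genes (0.314%), and at least 2-fold 89 and 11. The weakest siRNA at a shared higher gene was siE3 at 436 genes, siE1 at 426 and siE2 at 308. All 6 siRNA libraries lay above both siC libraries at 1169 of the shared higher genes and below both at 993 of the lower ones, which is 8.73% and 7.41% of the tested genes. Regardless of calls, 2019 genes (15.1%) had all 6 above both and 2060 (15.4%) all 6 below.

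PLSCR4, a phospholipid scramblase, led the higher genes when ranked by the weakest siRNA. It was at 3.70 and 3.60 CPM in siC, 15.5 and 15.9 under siE1, 14.2 and 14.2 under siE2, then 18.6 and 19.03 under siE3. Genes named by rank had to have no overlap between siRNA and siC libraries, so the lack of overlap is no result. The average log2 fold change of PLSCR4 was 2.14 (SE 0.0978, edgeR adjusted p = 3.319e-10). TMEM65, an inner mitochondrial membrane protein, was next, at 14.01 and 13.2 CPM in siC against 61.0, 61.9, 59.5, 58.2, 54.4 and 49.4 in the siE1, siE2 and siE3 libraries. Its log2 fold changes of 2.18, 2.12 and 1.93 were close in size, though the F test among siRNAs called a difference (edgeR adjusted p = 0.006995). TMEM64 rose as far in the average (2.21) but unevenly, from 18.4 and 18.2 CPM to 131 and 125 under siE1, 81.8 and 74.2 under siE2, then 58.0 and 64.4 under siE3. ACLY, ATP citrate lyase, which turns citrate into acetyl-CoA for making lipids, was at 199 and 214 CPM in siC. It was at 624 and 619 CPM under siE1, 614 and 606 under siE2, then 693 and 721 under siE3 (log2 fold changes 1.59, 1.56 and 1.78). The 6 libraries with an ESRRA siRNA thus lay from 606 to 721 CPM for ACLY.

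The other 8 of the 12 highest were NGEF, CACNA2D1, TMEM87B, SLC22A18, UHMK1, GPR17, DDR1 and SERPINB9, with average log2 fold changes from 1.45 to 2.05. They take in an auxiliary calcium channel subunit (CACNA2D1), a kinase (UHMK1), a G-protein-coupled receptor (GPR17), a collagen receptor kinase (DDR1) and a granzyme B inhibitor (SERPINB9). UHMK1 stood at 122 and 117 CPM in siC, 337 and 354 under siE1, 326 and 336 under siE2, then 442 and 451 under siE3. DDR1 was at 11.8 and 9.21 CPM in siC and at 24.6 to 32.0 CPM in the 6 siRNA libraries.

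FAM155B, a subunit of the NALCN sodium channel complex, fell from 15.4 and 13.4 CPM to 4.74 and 5.40 under siE1, 5.62 and 7.77 under siE2, then 8.27 and 6.57 under siE3. Its log2 fold changes were -1.50, -1.10 and -0.96 (average SE 0.119, edgeR adjusted p = 8.723e-07). SH3BGRL2, a small thioredoxin-fold protein, was at 27.1 and 26.9 CPM in siC and at 12.1 to 15.4 CPM in the 6 siRNA libraries. That is a similar fall with siE1 (-0.995), siE2 (-1.07) and siE3 (-0.84). ESM1, a secreted proteoglycan, fell from 38.1 and 37.1 CPM to between 15.8 and 27.2 CPM. SPNS2, the sphingosine-1-phosphate exporter, was at 99.8 and 99.0 CPM in siC, and at 61.2 and 61.4 under siE1, 29.7 and 34.4 under siE2, then 53.1 and 42.8 under siE3. The remaining genes of the 12 lowest were C5orf62, ONECUT2, SNHG4, TIGD7, HS3ST3B1, RAPGEF5 and SCAMP5, with averages from -0.89 to -1.22 and, at HS3ST3B1, groups at 9.03 and 6.77 CPM in siC against at most 5.80 with an siRNA.

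**Figure D1:**
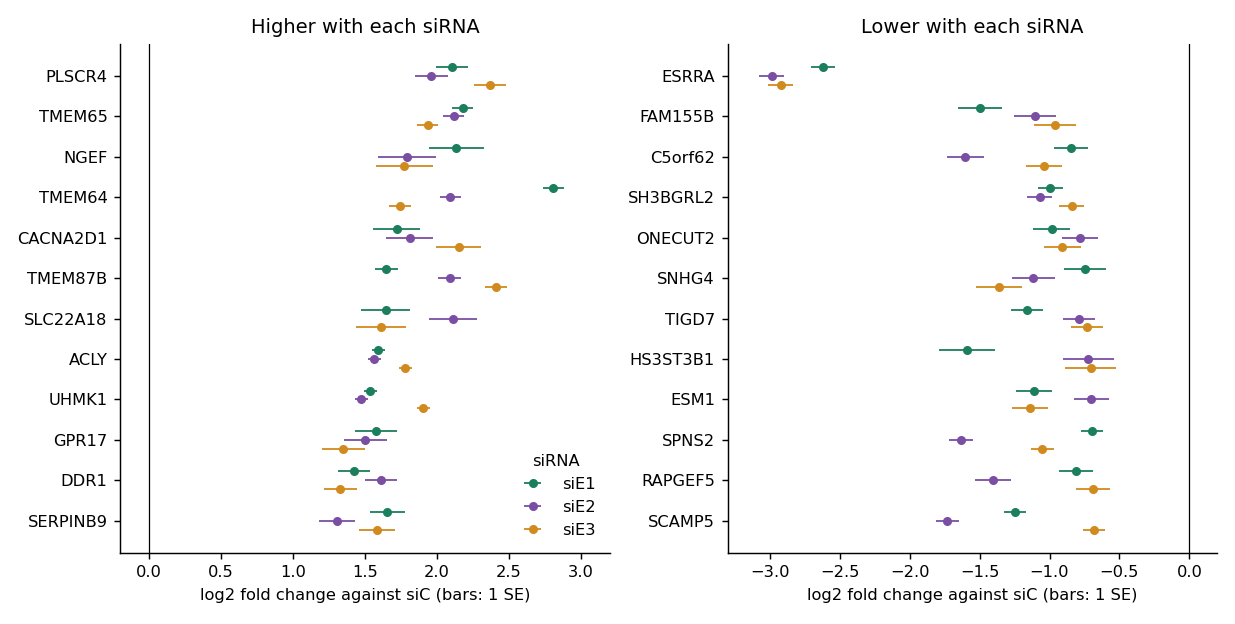
Log2 fold change against siC (x axis) with each siRNA (colors, bars of 1 SE) for the 12 highest and 12 lowest shared genes, ranked by the weakest siRNA. The 12 highest sit at 1.304 or above with every siRNA, while of the lower 12 only ESRRA lies beyond -2 with all 3.

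**Figure D2:**
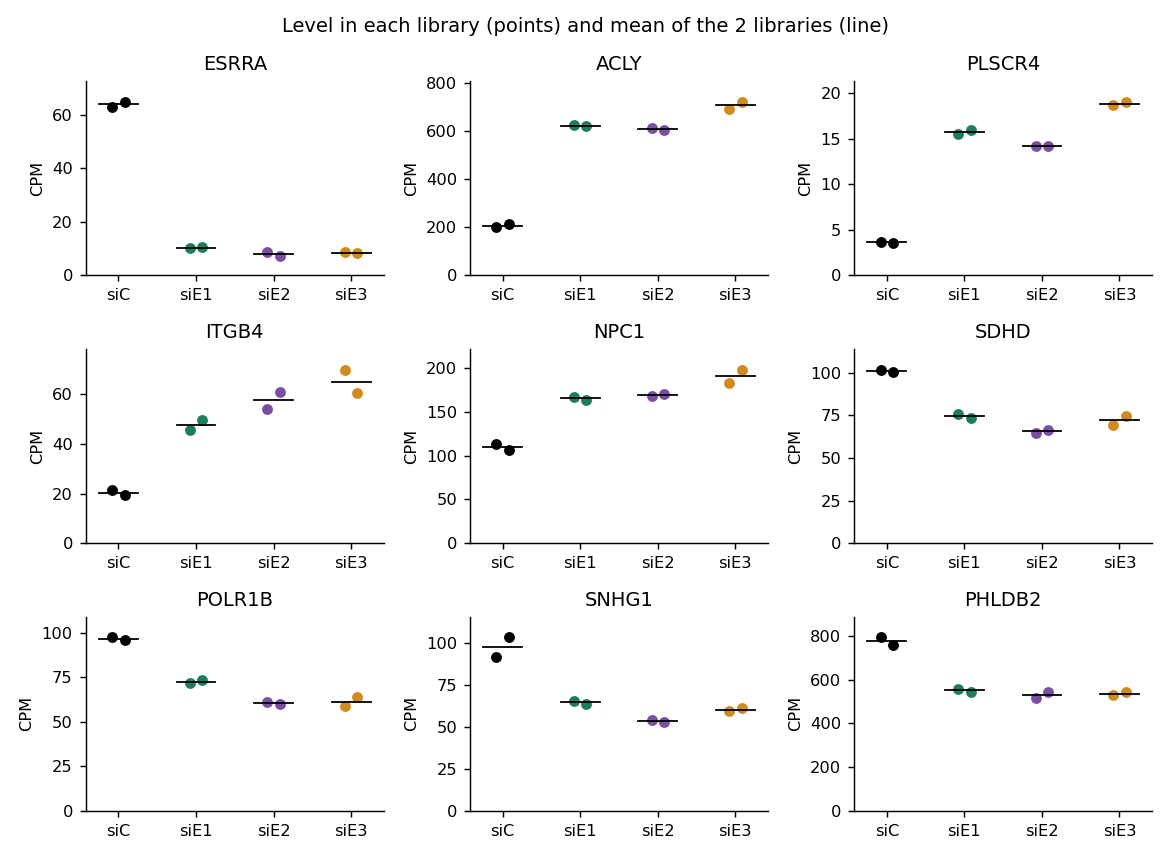
CPM in each of the 8 libraries for 9 shared genes described in the text, with a line at the mean of the 2 libraries. The naming rule required the siC points to lie apart from the 6 siRNA points, as they do in all 9. The fold was largest for ESRRA (average log2 fold change -2.84) and PLSCR4 (2.14).

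The calls above take the spread between the 2 libraries of a group as error. With the 6 siRNA libraries in 1 group, so that the spread between siRNAs enters the error, 675 genes were called (473 higher, 202 lower), all 675 among the shared genes. With the siRNA as a random block in limma-voom (correlation within an siRNA 0.8435), 15 genes were called, ESRRA lower and 14 higher, and 939 genes had an unadjusted p below 0.05. The 14 were ACLY, CLIC4, EFR3A, IGFBP4, IL6ST, ITGAV, NEK7, PEG10, PLSCR4, RDX, SETD7, TMEM65, TMEM87B and UHMK1. CLIC4, a chloride intracellular channel protein, was at 224 and 227 CPM in siC, 589 and 602 under siE1, 584 and 599.9 under siE2, then 559 and 554 under siE3. RDX, radixin, which links actin to the membrane, went from 94.1 and 98.7 CPM to 193, 197, 206, 202, 213 and 215. IGFBP4, which binds insulin-like growth factors, went from 233 and 236 CPM to between 449 and 589 CPM. In these 3 genes all 6 siRNA libraries lay well above both controls, but the genes were taken for their call in this fit, so that gap is no further result.

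All 14 of these higher genes carry the word TACATTT or ACATTTA in their 3' UTR, the part of an mRNA after the stop codon where small RNAs and RNA-binding proteins often bind. Both words had come out of an earlier search of these same fold changes, so this share is a description. Of all tested genes with a matched 3' UTR, 31.6% hold a word. To show what the words look like in the mRNA, the earliest one in 6 of the 14 genes is printed as DNA, 5' to 3', from GENCODE v29 transcripts, with the word in capitals and up to 10 bases on each side.
ACLY: agggaatgaaACATTTAtggcctcaag
CLIC4: gtttctaaagTACATTTAatgtagatga
UHMK1: aggtactttaTACATTTAtttaatccta
RDX: cagttctgtgTACATTTtaaaggataa
SETD7: acaatttttaACATTTAaatataacta
IGFBP4: ccacctaaaaACATTTActgaccatgt
CLIC4 and UHMK1 hold the 8 bases in which both words overlap. The 3' UTRs of the 6 printed genes hold 3, 4, 5, 4, 4 and 2 places with a word. Their lengths are 902, 3387, 7060, 2428, 5627 and 1148 bases, where the median of all tested genes is 1135, and a longer 3' UTR holds any word more often. ESRRA itself holds none in a 3' UTR of 777 bases.

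Over all shared genes with a matched 3' UTR, 569 of 1132 higher genes (50.3%) and 204 of 946 lower genes (21.6%) held a word, against 3874 of 12245 tested genes (31.6%). The median 3' UTR was 1477.5 bases for the higher, 1082 for the lower and 1135 for all tested genes, and longer 3' UTRs hold any word more often. Among the 12 highest genes 9 held a word, and NGEF, SLC22A18 and GPR17 did not. Of genes without a word, 563 of 8371 were shared higher (6.73%) and 742 shared lower (8.86%). Of genes with a word, 569 of 3874 were shared higher (14.7%) and 204 shared lower (5.27%). The part of the words in the rise was not tested.

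The direction of the shared genes went with the level in the control. Of 1286 genes below 1 CPM in siC, 50 were shared higher (3.89%) and 4 shared lower (0.311%). From 1 to 5 CPM the shares were 7.08% and 1.17% of 1708 genes, from 5 to 20 CPM 10.1% and 3.35% of 2539, and from 20 to 100 CPM 9.61% and 8.90% of 5046. From 100 to 500 CPM the order turned, with 9.33% higher and 15.6% lower of 2562 genes, and at 500 CPM or more it was 7.48% and 14.6% of 254. So 92.6% of the shared genes were higher at the lowest level and 33.9% at the highest. The median log2 fold change of all genes at a level moved the same way, from 0.26 below 1 CPM to -0.09 at 100 CPM or more. The filter on low counts bears on the lowest level. A gene below the filter's cutoff in siC was tested only if siRNA libraries passed the cutoff, so falls from there could not be seen. The share and the median below 1 CPM are thus set in part by the filter. The median SE fell from 0.346 to 0.0341 over the same levels, so small changes could be called only at high levels, and of changes of at least 1.5-fold with each siRNA, 50 higher and 4 lower genes lay below 1 CPM and 1 and 0 at 500 CPM or more.

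The siC libraries set both the level and the fold change here. When the level was taken from siC replicate 2 and the fold from replicate 1, 93.1% of the shared genes below 1 CPM and 31.1% of those at 500 CPM or more were higher, and with the replicates exchanged 78.9% and 32.0%. With the level taken as the mean of all 8 libraries the tilt was smaller and did not run through, at 73.3%, 77.0%, 65.5%, 50.7%, 48.3% and 55.6% from the lowest to the highest level. CPM per kb of transcript, an alternative added after the data were seen, gave 89.0%, 76.1%, 63.4%, 41.1% and 33.1% from the lowest to the highest of 5 bins of equal size. Among genes without a 3' UTR word (also added afterwards) the shares were 100%, 87.2%, 69.9%, 38.7%, 25.5% and 25.6%.

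**Figure D3:**
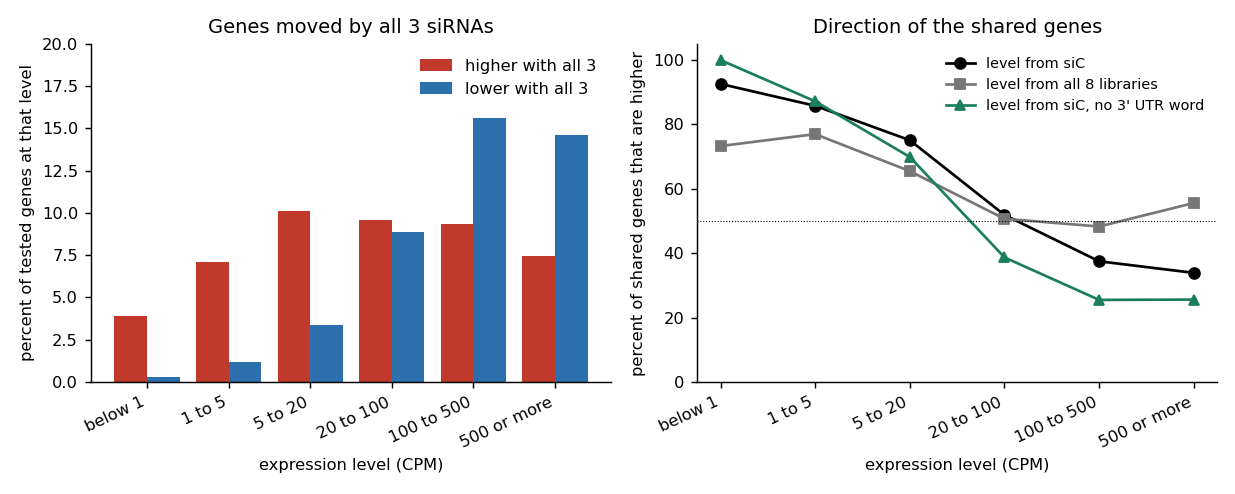
Left, percent of tested genes at each siC level (x axis, CPM) that were higher or lower with all 3 siRNAs; right, percent of those shared genes that were higher, with the level taken from siC, from all 8 libraries, or from siC for genes without a 3' UTR word. Higher genes prevail up to 20 CPM and lower genes from 100 CPM up, while the line for all 8 libraries stays between 48.3% and 77.0%.

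Each level had its own leading genes. At 500 CPM or more, TXNRD1, the cytosolic thioredoxin reductase, was at 572 and 575 CPM in siC and at 834 to 919 CPM in the 6 siRNA libraries. Its log2 fold changes of 0.59, 0.63 and 0.62 were not called different by the F test among siRNAs (edgeR adjusted p = 0.7907). AHNAK, a giant scaffold protein (702 and 558 CPM to 801 or more), was also higher, but its siC libraries were further apart. PHLDB2, a membrane-bound organizer of cortical microtubules, fell from 794 and 759.9 CPM to 558, 545, 515, 546, 529.9 and 544. BCL2L1, which encodes the survival factor BCL-XL, was called lower with all 3 yet stood at 241 and 245 CPM with siE1 against 499 to 530.1 CPM with siE2 and siE3 and 734 and 727 in siC. MCM3, of the replicative helicase, was at -0.43, -0.65 and -0.42.

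From 100 to 500 CPM the first higher genes were ACLY, UHMK1 and CLIC4, and the lower ones TNFRSF21, PPA1 and SFXN1. TNFRSF21, death receptor 6, was at 178 and 184 CPM in siC and at 98.4 to 115 CPM with the siRNAs, a fall of similar size with each. PPA1, the cytosolic pyrophosphatase, was at -0.56, -1.31 and -0.63, and SFXN1, a mitochondrial serine transporter, at -0.86, -1.14 and -0.52. From 20 to 100 CPM the higher genes were ITGB4, CD82 and NEK7. ITGB4, the integrin β4 of hemidesmosomes, rose from 21.6 and 19.2 CPM to 45.5, 49.7, 54.1, 61.0, 69.97 and 60.4. CD82, a tetraspanin known as a metastasis suppressor, stood at 31.0 and 36.7 CPM in siC and at 134 and 127 under siE1, 85.2 and 84.9 under siE2, then 80.5 and 76.6 under siE3. Below 1 CPM no gene reached the mean of 5 CPM that naming required, and from 1 to 5 CPM no lower gene did.

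Among 71 classes of genes set by symbol or list, 34 had more shared higher than lower members and 31 more lower than higher. Members of a class are not replicates, and a gene can be in several. Beside the 8.73% higher and 7.42% lower of all tested genes, some classes of the mitochondrion, of ribosome assembly and of RNA handling held more lower genes. Among those with more higher genes were integrins, lysosomal genes, cholesterol synthesis and laminins, the last with only 9 tested genes. Other classes of the cell surface had no such excess, with cadherins and protocadherins at 1 of 39 higher (2.56%) and SLC transporters at 16 of 185 (8.65%). The cadherin class lay low, at a median of 1.82 CPM in siC, where fewer genes of any class were shared higher. Below 1 CPM 1 of 12 cadherin genes was (all genes 3.89%), and from 1 to 5 CPM 0 of 17 (all genes 7.08%). Whether the class differs from others of its level was not tested.

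**Figure D4:**
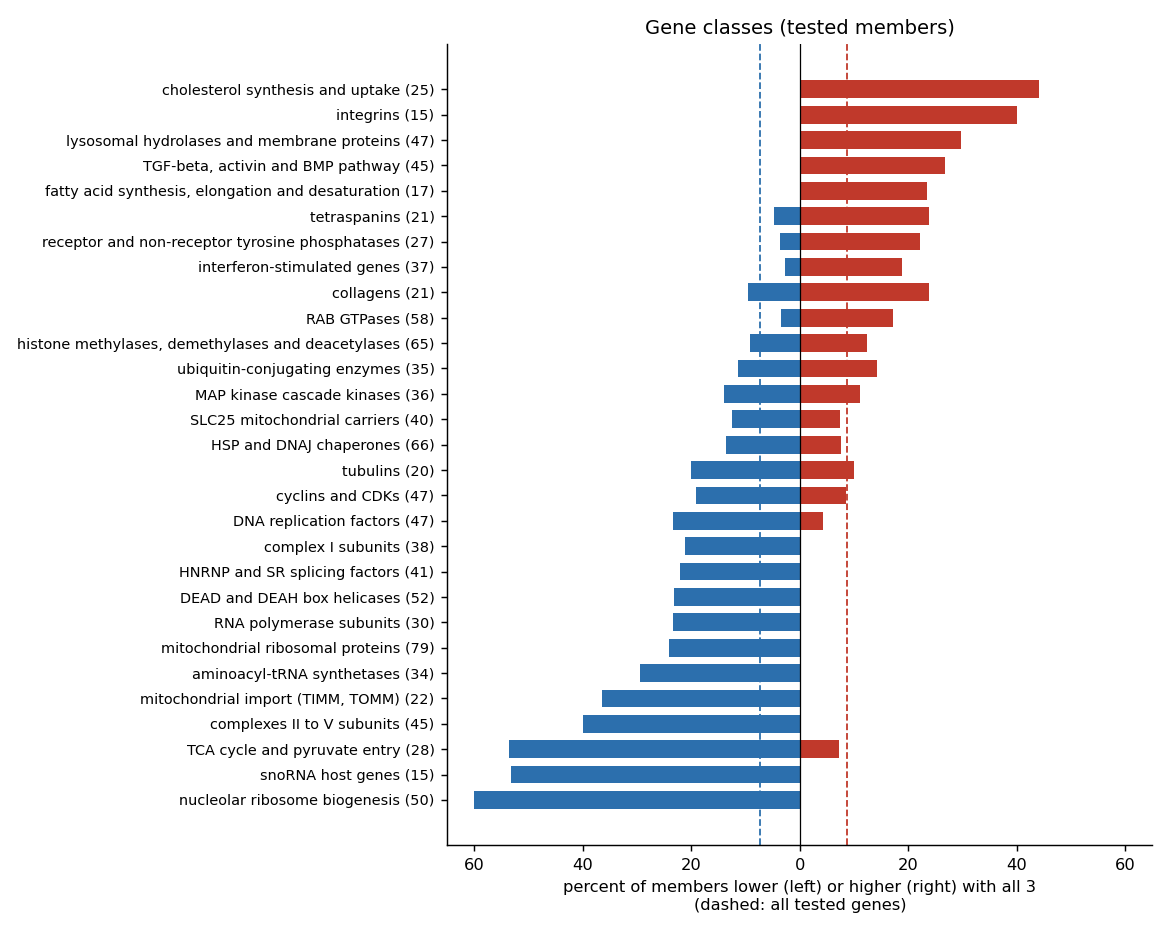
Percent of tested members (x axis) that were lower (left, blue) or higher (right, red) with all 3 siRNAs, for the 29 classes with at least 15 tested members and at least 20% shared genes; dashed lines mark all tested genes (7.42% lower, 8.73% higher). Nucleolar ribosome biogenesis (60% lower) and cholesterol synthesis (44% higher) sit at the 2 ends.

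Nucleolar ribosome biogenesis genes, which process and assemble ribosomal RNA, had 30 of 50 members shared lower and 0 shared higher. Their median average log2 fold change was -0.36, with medians of -0.21, -0.48 and -0.32 for siE1, siE2 and siE3. NOL6, of the small subunit processome, fell from 217 and 231 CPM to 153, 149, 143, 139.8, 153 and 169. RRP1 fell by similar amounts with each siRNA (-0.50, -0.47 and -0.47), and the RNA polymerase I subunit POLR1B was at 97.5 and 96.2 CPM in siC and at 59.0 to 73.5 CPM with the siRNAs. The ribosome assembly factor RRS1 was at -0.41, -0.58 and -0.69. Hosts of small nucleolar RNAs, spliced noncoding transcripts whose introns release the guides for ribosomal RNA modification, had 8 of 15 shared lower and 0 higher (median -0.46). SNHG1 was at 91.8 and 103 CPM in siC, 65.5 and 63.7 under siE1, 54.1 and 53.1 under siE2, then 59.4 and 61.1 under siE3. The small nucleolar RNA symbols themselves were near the floor of the assay, with a median of 0.919 CPM in siC, and 3 of 70 were shared lower and 0 higher (median -0.55).

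Cytosolic ribosomal protein genes behaved otherwise. Of 75 tested, 58 were lower in the average but 3 were shared lower, RPL35, RPL14 and RPL19, and 0 higher. The class median was -0.33 with siE2 against -0.08 with siE1 and -0.03 with siE3, so the class moved furthest with siE2. Many processed copies of these genes exist, and the handling of reads that match several places is unknown here, so the values are uncertain.

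Aminoacyl-tRNA synthetases, which load tRNAs, had 10 of 34 shared lower and 0 higher (29.4%, median -0.22), with the mitochondrial leucyl enzyme LARS2 at -0.37, -0.39 and -0.33. YARS, the cytosolic tyrosyl enzyme, was at -1.22 with siE2 against -0.31 and -0.33. DEAD and DEAH box helicases had 12 of 52 lower and 0 higher, with DHX33, which acts in ribosomal RNA transcription, at -0.72, -1.58 and -0.50 and DDX10 at -0.94, -0.65 and -0.47. RNA polymerase subunits had 7 of 30 lower and HNRNP and SR splicing factors 9 of 41, with 0 higher in either, with SF3A3 of the U2 complex at -0.46, -1.37 and -0.45. Translation initiation factors had 7 of 54 lower and 1 higher, but the higher one, EIF2C4, is an older symbol of the argonaute AGO4.

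Genes of mitochondrial respiration, the best known program of ERRα, included many shared lower genes, each moved by a small amount. Complexes II to V had 18 of 45 members shared lower (40%, median -0.24) and complex I 8 of 38 (21.1%, median -0.17), with 0 shared higher in either. The class medians with siE1, siE2 and siE3 were -0.24, -0.33 and -0.12 for complexes II to V. For complex I they were -0.18, -0.22 and -0.04, so near 0 with siE3. SDHD, the membrane anchor of succinate dehydrogenase, was at 102 and 101 CPM in siC, 75.8 and 73.7 under siE1, 64.6 and 66.6 under siE2, then 69.5 and 74.7 under siE3 (average -0.52, SE 0.0425, edgeR adjusted p = 1.138e-07). SDHB, the iron-sulfur subunit, was at 111 and 119 CPM in siC and between 88.5 and 90.8 CPM in all 6 siRNA libraries. The ATP synthase subunit gene ATP5G1 was at -0.34, -0.55 and -0.37, and NDUFB5 of complex I at -0.49, -0.31 and -0.30. The TCA cycle and pyruvate entry had 15 of 28 lower (53.6%) and 2 higher.

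Import and translation in mitochondria went the same way. The TIMM and TOMM import genes had 8 of 22 lower (median -0.28), among them TIMM17A at -0.50, -0.38 and -0.38 and the receptor TOMM22 at -0.38, -1.28 and -0.60. Mitochondrial ribosomal proteins had 19 of 79 lower (24.1%), with MRPS12 at -0.32, -0.45 and -0.40. The median of that class was -0.18 with siE1, -0.24 with siE2 and -0.06 with siE3. The SLC25 carriers were divided, with 5 lower and 3 higher of 40, the aspartate-glutamate carrier SLC25A12 at -0.52, -0.76 and -0.44 and SLC25A46 at 0.40, 0.47 and 0.38. Fatty acid oxidation had 1 of 25 lower (ACSL1, at -0.22, -0.84 and -0.94) and 0 higher, and glycolysis 3 of 21 lower, PFKM, GPI and HK2. The glycolysis share of 14.3% lower rests on these 3 genes, and that of fatty acid oxidation, 4%, on 1.

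Among genes of the cell cycle, DNA replication factors and cyclins held more lower than higher members. Centromere and kinetochore proteins had 3 of 43 shared higher (6.98%) and 4 lower (9.30%), near the 8.73% and 7.42% of all tested genes. DNA replication factors had 11 of 47 shared lower (23.4%) and 2 higher, the clamp loader subunit RFC5 at 0.68, 0.52 and 0.67 and the polymerase δ subunit POLD4, while RFC3 of the same loader was at -0.45, -0.75 and -0.68. Cyclins and cyclin-dependent kinases with their inhibitors had 9 of 47 lower and 4 higher. CCNG2, an atypical cyclin that rises in arrested cells, was at 1.05, 2.05 and 1.76, and the inhibitor CDKN1C at 0.58, 1.65 and 1.02, while CCNJ was at -0.87, -0.60 and -1.44.

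Integrins, the receptors for the extracellular matrix, had 6 of 15 members shared higher and 0 lower (median 0.62 in the average, and 0.36 over the 11 members with a mean of at least 5 CPM). Their medians with siE1, siE2 and siE3 were 0.37, 0.58 and 0.24. ITGB2, the leukocyte β chain, was at 4.43 and 5.14 CPM in siC and at 10.7 to 14.2 CPM with the siRNAs. ITGAV, the αv chain, was at 107 and 99.9 CPM in siC and at 199, 215, 207, 205, 196 and 196 with siE1, siE2 and siE3, and the F test among siRNAs called no difference (edgeR adjusted p = 0.2807). Laminins had 4 of 9 higher and 0 lower, too few genes to read a share from, with LAMB3, a chain of laminin-332 to which ITGB4 binds, at 0.32, 0.43 and 0.76. The laminin medians with siE1, siE2 and siE3 were -0.07, 0.43 and 0.34. Over the 7 laminins with a mean of at least 5 CPM the siE1 median was 0.14. Collagens had 5 of 21 higher and 2 lower. COL6A1 rose from 45.9 and 47.5 CPM to between 78.9 and 107 CPM, and COL5A2 was lower at -1.01, -0.57 and -0.49. Among metalloproteases and their inhibitors 6 of 35 were higher and 1 lower, with the membrane collagenase MMP14 at 0.67, 0.82 and 0.74 and ADAMTS6 at -0.47, -1.07 and -0.73.

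The TGF-β, activin and BMP pathway had 12 of 45 shared higher and 0 lower (median 0.33). TGFBR1, the type I receptor, stood at 27.3 and 30.9 CPM in siC, 116 and 112 under siE1, 61.7 and 54.4 under siE2, then 103 and 106 under siE3. Its rise differed among the siRNAs (F test, edgeR adjusted p = 1.219e-08) and was lowest with siE2. SMAD5, which carries BMP signals, was at 53.9 and 58.4 CPM in siC and at 107 to 121 CPM with the siRNAs, and the latent TGF-β binding protein LTBP2 was at 1.18, 0.74 and 0.93. Tyrosine phosphatases had 6 of 27 higher and 1 lower, and tetraspanins 5 of 21 and 1. Receptor tyrosine kinases had 4 of 29 higher and 1 lower, FGFR1, with AXL at 0.43, 0.65 and 0.27 and MET at 0.25, 0.37 and 0.48.

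Cholesterol synthesis and uptake had 11 of 25 shared higher (44%) and 0 lower. HMGCS1, the synthase at the head of the pathway, was at 265 and 306 CPM in siC and at 365 to 456 CPM with the siRNAs. Fatty acid synthesis, elongation and desaturation had 4 of 17 higher, ACLY, FADS1, FADS2 and ELOVL6, and 0 lower. Lysosomal hydrolases and membrane proteins had 14 of 47 higher and 0 lower (median 0.26). NPC1, which exports cholesterol from the lysosome, was at 113 and 107 CPM in siC, 167 and 164 under siE1, 168 and 170.4 under siE2, then 183 and 198 under siE3. The membrane glycoprotein LAMP2 was at 0.47, 0.54 and 0.63 and the protease CTSZ at 0.50, 0.90 and 0.62. The V-ATPase, which acidifies the lysosome, had 1 of 23 higher (ATP6AP2) and 1 lower (ATP6V1A).

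The classes were also counted within a control level. At 100 to 500 CPM, where 15.6% of all genes were shared lower, 22 of 31 nucleolar genes (71.0%), 12 of 25 genes of complexes II to V (48.0%), 12 of 18 TCA and pyruvate genes (66.7%) and 11 of 26 mitochondrial ribosomal proteins (42.3%) were. Complex I had 5 of 8 lower there (62.5%). From 20 to 100 CPM, where 8.90% of all genes were shared lower, complex I had 3 of 29 (10.3%), close to the share of that level, and mitochondrial ribosomal proteins 7 of 45 (15.6%). At that level complexes II to V had 5 of 17 (29.4%), TCA and pyruvate genes 3 of 10 and nucleolar genes 7 of 17 (41.2%). Back at 100 to 500 CPM, where 9.33% of all genes were shared higher, 8 of 13 lysosomal genes (61.5%) and 6 of 13 cholesterol genes (46.2%) were. From 20 to 100 CPM, 8 of 21 genes of the TGF-β pathway (38.1%) were higher against 9.61% of all genes. Cytosolic ribosomal proteins at 100 to 500 CPM had 3 of 43 lower (6.98%).

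Among genes without a 3' UTR word, some classes had like shares and others did not. Lysosomal genes had 12 of 37 shared higher, cholesterol genes 8 of 19, laminins 4 of 7, integrins 4 of 10 and the TGF-β pathway 6 of 23, against 6.73% of all such genes. Fatty acid synthesis had 1 of 10 (10.0%, 23.5% with all members) and receptor tyrosine kinases 1 of 19 (5.26%, 13.8% with all members). Nucleolar genes had 24 of 35 shared lower, and complexes II to V 15 of 32, against 8.86%. RAB GTPases, which direct vesicle traffic, had 10 of 58 shared higher in all (17.2%) but 2 of 34 without a word (5.88%). RAB27A, RAB27B, RAB18 and RAB9A, the leading ones, all hold a word, and RAB18 was at 1.34, 0.41 and 1.38. The USP deubiquitinases had 4 of 47 higher in all (8.51%) and 0 of 24 without a word. The ubiquitin-conjugating enzymes had 5 of 35 (14.3%) and 1 of 13. TMEM proteins had 11 of 169 higher in all (6.51%) and 3 of 120 without a word. Over all tested genes 8.73% were shared higher, so the USP and TMEM shares with all members were near or below that of all genes. With all members, shared lower were 4 USP, 4 ubiquitin-conjugating, 9 TMEM and 2 RAB genes. Whether the words bear on these classes was not tested.

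**Figure D5:**
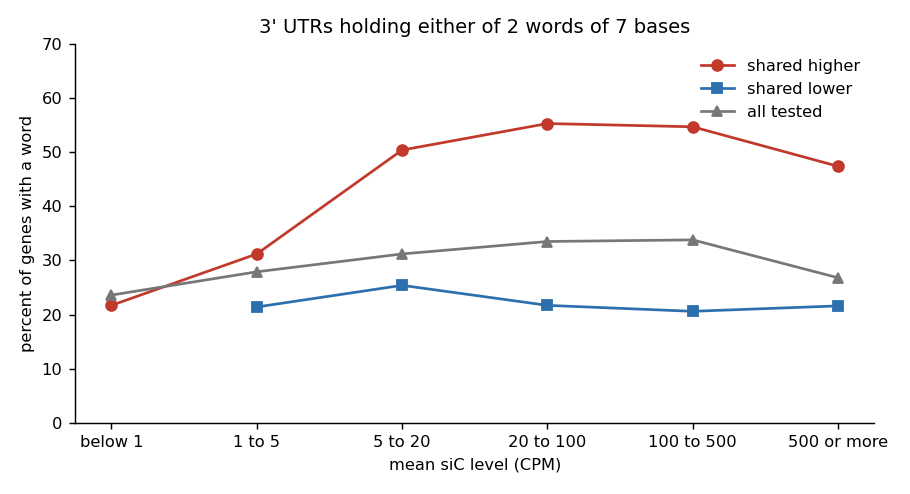
Percent of genes with a matched 3' UTR that hold TACATTT or ACATTTA (y axis) by siC level (x axis, CPM), for shared higher, shared lower and all tested genes; sets of under 10 genes are not drawn. Shared higher genes stand above all tested genes from 5 CPM up (50.4% against 31.2% at 5 to 20 CPM), and not below 1 CPM (21.7% against 23.6%).

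The share of shared higher genes with a word varied with the level. Below 1 CPM, 10 of 46 shared higher genes held a word (21.7%, all tested 23.6%), and from 1 to 5 CPM 34 of 109 (31.2%, all tested 27.9%). From 20 to 100 CPM it was 262 of 474 (55.3%, all tested 33.5%), and from 100 to 500 CPM 129 of 236 (54.7%, all tested 33.8%). Shared lower genes held one in 20.6% to 25.4% at the levels from 5 CPM up.

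Zinc finger genes stood below the share of all tested genes in both directions, with 20 of 525 shared higher (3.81%) and 10 shared lower (1.90%). From 5 to 20 CPM, where 238 of them lie, 4.62% were higher against 10.1% of all genes at that level. Proteasome subunits had 3 of 47 lower (6.38%), near the share of all genes, and 0 higher. Keratins, with 10 tested genes too few to read a share from, had 0 in either direction. By RefSeq gene type, protein-coding genes had 9.23% higher and 7.69% lower of 12352. Long noncoding RNAs had 4 of 222 higher (1.80%) and 17 lower (7.66%), of which 8 were hosts of small nucleolar RNAs, and of the other 207 long noncoding RNAs 4 were higher and 9 lower. Their median control level was 1.48 CPM, and of all shared genes from 1 to 5 CPM 85.8% were higher. Transcribed pseudogenes had 4 of 239 higher and 6 lower.

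The ERR element was rare in promoters, at shared genes as at others. In windows of 250 bases before to 50 after the RefSeq start (GRCh38.p14, either strand), TNAAGGTCA lay in 5 of 916 shared higher (0.546%), 5 of 838 shared lower (0.597%) and 54 of 10378 tested promoters (0.520%). The 10 matches are printed on the strand of the gene, with the element or its reverse complement in capitals and 10 bases on each side, to show how close they are to each other. The authors' build was hg19, and these positions are of the newer build.
SOD3 (higher), chr4:24795324-24795352, plus strand: tgctgtgtgcTGAAGGTCActggctacaa
MGAT4B (higher), chr5:179803031-179803059, minus strand: tgcctgatcaTGACCTTGAtcatgcacag
C3orf62 (higher), chr3:49277258-49277286, minus strand: attttttgtcTGACCTTCAacctaatccg
ECM1 (higher), chr1:150507910-150507938, plus strand: cagtttctctTGAAGGTCAtaagaatgtt
C19orf54 (higher), chr19:40750647-40750675, minus strand: gaccaatcagTGAAGGTCAcgagtctgta
POGLUT1 (lower), chr3:119468731-119468759, plus strand: ataccctctcTGACCTTCAgttttctggc
SDHD (lower), chr11:112086874-112086902, plus strand: ggttggtggaTGACCTTGAgccctcagga
NOP16 (lower), chr5:176388749-176388777, minus strand: agcctcccggTGAAGGTCAtgaaaggggc
FARSA (lower), chr19:12933927-12933955, minus strand: gcggtgcttcTGACCTTGAgataatcaat
DDX47 (lower), chr12:12813137-12813165, plus strand: aaaagggaccTAAAGGTCAactggagtcc
At SDHD the element starts 11 bases after the RefSeq start, and at the others from -239 to -44 bases relative to it. SOD3, the extracellular superoxide dismutase, rose from 2.01 and 1.80 CPM to between 4.07 and 4.88 CPM, and MGAT4B, a Golgi glycosyltransferase, from 135 and 129.8 CPM to between 230.3 and 271 CPM. POGLUT1, which adds glucose to Notch, fell from 39.2 and 41.8 CPM to between 21.6 and 26.6 CPM. Promoters with the element had a median average log2 fold change of -0.06 over all tested genes, and those without it -0.02.

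Some motifs of other regulators of mitochondrial and ribosomal genes differed more between the directions. The NRF1 motif lay in 81 of 916 shared higher (8.84%), 143 of 838 shared lower (17.1%) and 11.8% of all tested promoters. The ETS motif CCGGAAG was in 14.8%, 24.0% and 19.4%, the cAMP response element TGACGTCA in 2.51%, 4.77% and 3.22%, the E-box CACGTG in 10.4%, 13.4% and 10.1%, and the NF-Y motif CCAAT in 304 of 916, 310 of 838 and 3793 of 10378. The share of promoters with an NRF1 or ETS motif also varied with the level, so the same was counted within levels. From 100 to 500 CPM the NRF1 motif was in 12.4% of shared higher, 18.5% of shared lower and 15.1% of all tested promoters, and from 20 to 100 CPM in 9.84%, 15.6% and 13.4%. For ETS the shares were 15.5%, 26.2% and 22.5%, and 16.6%, 25.2% and 22.4%. For the E-box they were 10.8%, 14.5% and 11.3% from 100 to 500 CPM. From 20 to 100 CPM they were 13.0%, 12.5% and 11.2%, without that order. At 500 CPM or more the NRF1 motif was in 0 of 16 shared higher, 7 of 30 shared lower and 27 of 207 tested promoters. There the order for ETS turned, with 0 of 16 shared higher, 3 of 30 shared lower (10.0%) and 30 of 207 tested promoters (14.5%). A match is a run of letters, and binding was not measured here.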

How the data were processed

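Per the labels' protocols, total RNA came from a column kit (RNeasy) and library preparation was Illumina's standard. Per the submitters' processing notes the tools were TopHat 1.3.3, HTSeq and DESeq, on hg19. The sources used here give no strand setting, annotation or filter, and a gene's reads cannot be told apart from those of an overlapping or antisense partner. What was deposited holds the authors' raw counts for 23368 gene symbols, 5492 without a count. The authors' own fold and p columns were not used.

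filterByExpr of edgeR 4.0.16 (R 4.3.3) kept 13395 genes. One quasi-likelihood fit (glmQLFit, glmQLFTest) with TMM scaling (factors 0.980 to 1.02) and a mean for each of the 4 groups left 4 residual degrees of freedom (biological coefficient of variation 4.08%). Its contrasts were the equally weighted average of the 3 ESRRA siRNAs against siC, each siRNA against siC, and an F test among the siRNAs, with Benjamini-Hochberg adjustment over all tested genes and a threshold of 0.05. Each SE was derived from the fold change and its F statistic. On simulated counts (13246 genes) the average contrast recovered 56% of genes changed by 0.25 (log2), 87.8% at 0.5, 93.6% at 1 and 100% at 2. All 3 siRNAs together recovered 26%, 79.6%, 85.1% and 100%. False calls were 10 of 175 (5.71%) and 0 of 142. The simulation gave a changed gene the same change with all 3 siRNAs, and its only spread was that between replicates. In the data 70.7% of genes were called different among the siRNAs, so these rates leave out the spread between siRNAs.

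The comparison, the 71 classes, the level edges, the motifs and the words were chosen with earlier results of these data known. Named by rule were ESRRA and, among shared genes that averaged 5 CPM or more over the 8 libraries and had no siRNA library overlapping siC, ranked by the weakest siRNA, the 12 highest and 12 lowest, the first 3 each way at a level and up to 4 members of a class. Shared genes with an ERR element were printed in rank order, without the level limit. The genes called with the siRNA as a random block were named outside the rule, after their values were seen, as were their 6 printed 3' UTR windows. Classes needed 5 tested members. Symbols were matched to RefSeq (19862 by symbol, 2138 by synonym) for gene type and promoters, and to principal GENCODE v29 transcripts for 3' UTRs. Alternatives used DESeq2 1.42.0 and limma 3.58.1. Plots used matplotlib 3.10.9 under Python 3.11.15. Some genes that the naming rule takes are not reported here.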

Additional observations from a re-analysis of the deposited data

Results flagged for a closer look

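The 3 siRNAs differed from each other, by edgeR's F test among siE1, siE2 and siE3, at 9476 genes, and at 20 of the 24 genes that lead the 2 directions. Among the higher genes the adjusted p was 3.553e-09 for TMEM64, 3.054e-07 for TMEM87B, 5.643e-07 for UHMK1, 0.0007137 for ACLY and 0.002193 for PLSCR4. It was 0.005328 for SLC22A18, 0.006995 for TMEM65, 0.01555 for CACNA2D1, 0.01886 for SERPINB9 and 0.04852 for DDR1. Among the lower genes it was 1.887e-07 for SCAMP5, 8.885e-07 for SPNS2, 0.0007402 for RAPGEF5, 0.0008306 for C5orf62 and 0.002876 for HS3ST3B1. It was 0.01288 for TIGD7, 0.01381 for ESM1, 0.01401 for ESRRA, 0.01537 for SNHG4 and 0.02911 for FAM155B. TMEM64 rose most with siE1 (2.81) and least with siE3 (1.74), and SCAMP5, a secretory carrier membrane protein, fell most with siE2 (-1.73) and least with siE3 (-0.68). ESRRA was least reduced with siE1 (-2.62, against -2.99 with siE2 and -2.92 with siE3).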

How the results depend on the processing

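Counts of genes called in the average (6849), shared higher (1170) and shared lower (994) kept within 1.5 times with other scaling (DESeq2's size factors, or library size), other filters, limma-voom and DESeq2, and the last called 5712 in the average and 945 and 733 shared. Leaving out 1 library gave 5130 to 6951 in the average (2348 to 3156 higher, 2782 to 3795 lower), 891 to 1120 shared higher and 628 to 995 shared lower, and 8562 to 9459 that differed among siRNAs. The lowest count of shared lower genes, 628, came without siC replicate 2, and 66.6% of the 2164 shared genes were then still shared. At least 1.5-fold left 1277 in the average (904 higher, 373 lower) and 296 and 42 with each siRNA, and an adjusted p below 0.01 with each left 811 higher and 594 lower. The fit of 6 against 2 libraries called 675 (473 higher, 202 lower), with a biological coefficient of variation of 16.95%, and 2928 genes at an unadjusted p below 0.05. The siRNA as a random block left 15 (14 higher, 1 lower). In that fit 18 of the 24 leading genes were no longer called, and HS3ST3B1 was not called in the 6 against 2 fit (edgeR adjusted p = 0.1009), while none changed sign. Deviations of replicate 1 correlated at 0.26 between siC and siE3 and at 0.36 between siE1 and siE2. Between the other pairs of groups they correlated at -0.39 to -0.34. Replicate 1 of siE1 and siE2 thus deviated like replicate 2 of siC and siE3. The replicate numbers as given do not pair the samples, and a block in another order was not fitted. With the replicate block 6432 genes were called in the average and 1094 and 869 were shared. Of shared genes below 5 CPM in siC 87.7% were higher, and 76.3% with the level from all 8 libraries. At 100 CPM or more 37.2% were, and 48.8% with the level from all 8 libraries, 41.2% with the level from siC replicate 2 and the fold from siC replicate 1, 33.1% in the highest of 5 equal bins per kb and 25.5% without the words, the last 2 added after the data were seen. Scaling moved the median of all genes by less than 0.1 (log2), from -0.01 to 0.00 with library size alone, where the medians of zinc fingers (-0.01) and fatty acid oxidation (-0.01) turned to 0.01. Likewise the medians of MAP kinases, histone methylases, argonaute machinery, long noncoding symbols, FAM and KIAA symbols and protein-coding genes turned from below to above 0. Where the cause of a shift is not in the construction of the alternative, the cause was not tested.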

Other observations

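Genes of the small RNA machinery included shared genes of both directions. Of 13 tested, 2 were shared higher and 2 shared lower (15.4% each), beside 8.73% and 7.42% of all tested genes. The class is too small to read a share from. EIF2C4, the older symbol of the argonaute AGO4, was at 1.09, 1.07 and 1.35 with siE1, siE2 and siE3, and DICER1, which cuts microRNA precursors, at 0.25, 0.68 and 0.97. The exporter of those precursors, XPO5, was at -0.42, -0.97 and -0.59, and the nuclear processor DROSHA at -0.84, -0.20 and -0.24. EIF2C4 and DICER1 hold a word TACATTT or ACATTTA in the 3' UTR, and XPO5 and DROSHA do not.

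Among interferon-stimulated genes 7 of 37 were shared higher (18.9%) and 1 lower, where 8.73% of all tested genes were shared higher and 7.42% lower. Without a 3' UTR word it was 3 of 27 (11.1%, all such genes 6.73%), and the class median was 0.16 against 0.32 with all members. Among the shared higher genes were IFIT1 at 1.19, 1.53 and 0.76, IRF1 at 0.74, 1.15 and 0.62 and GBP2 at 1.32, 1.10 and 1.72. Cytokines had 4 of 24 higher (16.7%) and 0 lower. CSF1, the macrophage colony-stimulating factor, stood at 37.004 and 38.8 CPM in siC. Under siE1 it was at 56.5 and 49.1 CPM, under siE2 at 147 and 121, under siE3 at 88.4 and 92.6. Ion channels had 10 of 67 higher (14.9%) and 1 lower, with the potassium channel KCNN4 at 1.125, 0.70 and 1.51 and ORAI3, a pore subunit of calcium entry, at 0.48, 1.08 and 0.82.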
